A study of Mus musculus with 2 samples.

Results

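Mural and fibroblastic stromal cells were found as a small minority among cells that the labels describe as sorted endothelial cells of mouse lymph nodes. They were chosen from their own counts of unique molecular identifiers (UMIs, each marking 1 captured RNA molecule). A cell was a member where Col1a2, Col3a1, Dcn, Acta2, Myh11 and Notch3 together gave at least 6 UMIs and more than the endothelial genes Cdh5, Pecam1 and Cldn5 together. Of 10612 cell barcodes, 9919 carried a single pool tag and passed the limits on genes and mitochondrial UMIs, and 110 of those (1.11%) were members. A member was called mural where Acta2, Myh11 and Notch3 outnumbered Col1a2, Col3a1 and Dcn, and fibroblastic where the reverse held. This gave 54 mural cells, 55 fibroblastic cells and 1 cell with 5 UMIs on each side, from a library 1 Xbp1-KO peripheral pool, which entered neither.

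The study set peripheral against mesenteric lymph nodes and WT against Xbp1-KO mice. Each of the 2 droplet libraries held 4 pools told apart by antibody-borne tags, namely peripheral and mesenteric nodes of WT mice and the same pair of tissues from Xbp1-KO mice. All pools came from tamoxifen-treated mice, tamoxifen being the usual switch for inducible Cre recombinases. The Cre line, the cells in which it acts, the age of the mice and the number of animals behind a pool were not given in the labels. A group of tissue and genotype therefore had n = 2, 1 pool per library, and p-values measure the spread between these pools only. The nodes were digested with enzymes, CD45-positive cells were removed on magnetic beads and endothelial cells were sorted, so that a stromal cell seen here is one that passed a sort meant for another cell type.

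Mural cells wrap the endothelial tube. Smooth muscle cells of arteries contract through actin and smooth muscle myosin, pericytes of capillaries and venules carry less of this apparatus, and both depend on the receptors Notch3 and Pdgfrb for their recruitment and upkeep. Lymph node fibroblasts, called reticular cells where they span the tissue, lay down the collagen scaffold and secrete the chemokines that guide lymphocytes: Ccl19 and Ccl21a in the T cell area and Cxcl13 in the follicles. A further fibroblast kind lines the outer wall of larger vessels and the capsule and is known for Cd34 and Pi16.

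Library 1 contributed 78 members (35 mural, 42 fibroblastic and the undecided cell) of 7177 kept cells, and library 2 contributed 32 (19 mural and 13 fibroblastic) of 2742. The libraries held 33024170 and 14744778 gene UMIs. They shared 3 barcodes, and no member barcode was in both. Members had a median of 3632.5 UMIs in mural, 4285 in fibroblastic and 3829 in other cells. Mitochondrial UMIs made up a median of 3.99% in mural cells against 2.42% in fibroblastic and 2.36% in other cells. The WT pools of library 1 and the Xbp1-KO pools of library 2 had Ddx3y, a gene of the Y chromosome, in 22.9% to 31.9% of kept cells and Xist, the RNA of the silenced X chromosome, in at most 5.08%. In the other 4 pools Xist was found in 73.7% to 84.7% and Ddx3y in at most 1.19%. Genotype and this sex pattern thus could not be told apart within a library, and they were crossed between the libraries.

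The sum that admitted a cell ran from 6 to 417 UMIs with a median of 32.5. At the lower edge stood 8 members with 6 or 7 UMIs. Just outside it were 8 kept cells with 4 or 5, and 58 further kept cells reached 6 UMIs without exceeding their own endothelial sum. In 63 members no endothelial UMI of the 3 rule genes was found, while 29 members had at least 3, of which 14 were mural and 14 fibroblastic. The lymphatic endothelial regulator Prox1 was found in 2 mural and 11 fibroblastic cells, 7 of the latter among those with at least 3 endothelial UMIs. The 9 genes of the endothelial marker list, all detected on both sides, summed to 1975 and 1858 CPM in mural cells of libraries 1 and 2, to 1856 and 250 CPM in fibroblastic cells and to 6446 and 7094 CPM in other kept cells. The 3 endothelial rule genes are among these 9, so the lower sums in members are partly set by the rule. Scrublet, a caller of droplets that hold 2 cells, marked none of the 110 members. Among barcodes with more than one tag it marked 74 of 447 in library 1 and 0 of 65 in library 2, so it gave no usable check in library 2.

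**Figure D1:**
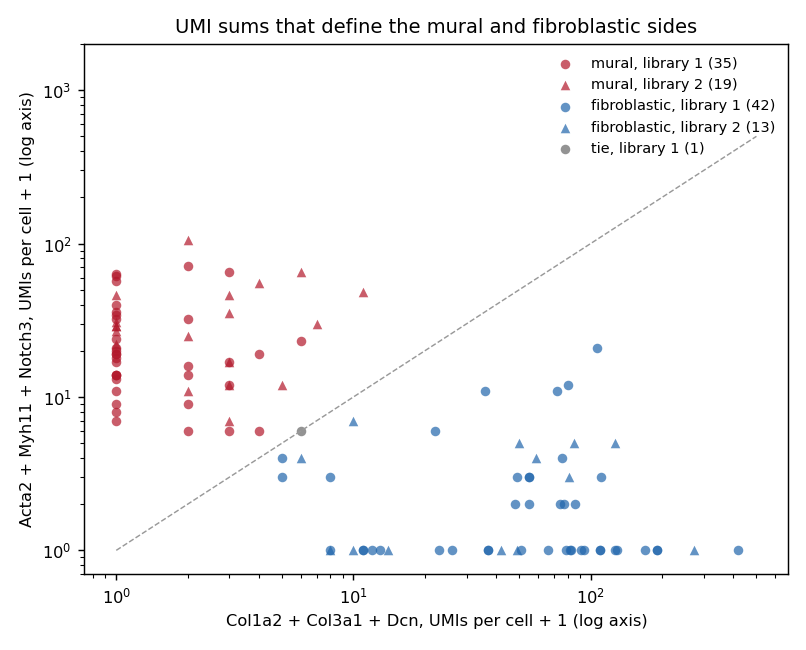
Each point is 1 of the 110 members, placed by its UMIs of Col1a2, Col3a1 and Dcn (x axis, plus 1, log scale) and of Acta2, Myh11 and Notch3 (y axis, plus 1, log scale), with circles for library 1 and triangles for library 2. Most cells lie along 1 axis: 28 of 54 mural and 30 of 55 fibroblastic cells had no UMI of the opposite side, and 22 members had at least 3 on both.

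Mural cells were led by genes of the contractile apparatus. Acta2, smooth muscle actin, stood at 3295 CPM (the gene's UMIs in the summed cells, scaled to a common total in the usual way) in library 1 and 3640 in library 2, in 48 of 54 cells. Myh11, the smooth muscle myosin heavy chain, stood at 1909 and 2010 CPM in 50 cells. Notch3 stood at 1535 and 1228 CPM in 52 cells, and the 6 cells without Acta2 all carried it. These 3 genes chose the cells, and so their levels are a description. The same holds, less directly, for every gene named on either side, since the sides were cut from the same cells, and no test is given for a difference between sides.

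Genes that the rule did not use filled in the same apparatus. Tagln, an actin-binding protein of smooth muscle, stood at 3345 and 4923 CPM in 47 mural cells, against 219 and 195 on the fibroblastic side and 27.1 and 41.4 in the other kept cells. The regulatory myosin light chain Myl9 stood at 2540 and 1891 CPM in 51 cells, against 170 and 181 on the fibroblastic side. Tpm2, a tropomyosin, stood at 1560 and 1510 CPM, and Lmod1, which nucleates actin filaments in smooth muscle, at 373 and 315 CPM in 34 cells but in 0.0612% of other cells. Of the 16 genes of the contractile list, 15 had UMIs in members and 12 were higher on the mural than on the fibroblastic side in both libraries, Acta2 and Myh11 among them. Across the 3963 genes with at least 20 UMIs in members, 34.8% were. Some contractile genes were at or near 0: Cnn1, calponin, had no UMI in any member, and Actg2, the actin of visceral muscle, had 3 UMIs in 1 mural cell. Smtn, smoothelin, had 3 UMIs on the mural side and was higher in the other kept cells, at 88.5 and 73.5 CPM.

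Many contractile genes are known to carry CArG boxes, the binding motif of serum response factor, near their start. The 250 bases before the RefSeq start (GRCm38.p6) of Myl9 and Acta2 are printed 5′ to 3′ because these are the contractile genes with a pair of such runs here. Capitals mark CArG boxes and CArG-like runs, the latter having 1 of the 6 central bases that is neither A nor T; the motif is its own reverse complement, and no 2 runs overlapped. The Myl9 stretch is chr2:156775214-156775463 on the plus strand, with a CArG box at position -161 and a CArG-like run at position -99 from the start. The Acta2 stretch is chr19:34255374-34255623 on the minus strand, with CArG-like runs at positions -84 and -34.
Myl9: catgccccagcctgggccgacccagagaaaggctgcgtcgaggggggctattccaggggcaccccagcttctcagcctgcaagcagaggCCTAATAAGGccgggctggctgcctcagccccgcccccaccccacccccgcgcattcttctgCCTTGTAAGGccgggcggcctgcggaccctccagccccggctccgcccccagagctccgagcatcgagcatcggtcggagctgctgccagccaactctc
Acta2: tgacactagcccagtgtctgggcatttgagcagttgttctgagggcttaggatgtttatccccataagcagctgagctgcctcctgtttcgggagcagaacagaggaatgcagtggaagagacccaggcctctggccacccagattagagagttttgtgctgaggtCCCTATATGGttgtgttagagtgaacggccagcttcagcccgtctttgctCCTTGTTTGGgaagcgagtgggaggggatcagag
RefSeq windows of 300 bases (250 before and 50 after the start) were at hand for 13 of the 16 contractile genes, 15 windows in all. A CArG box was in 2 of these windows (13.3%) and in 1.63% of all 32851 windows. Counting CArG-like runs as well, it was 3 of the 15 (20%) against 9.98%, and 2 of 9 collagen gene windows (22.2%) also held one. A match describes the letters only and shows no binding.

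Regulators of smooth muscle tone followed the same side. Rgs5, which shortens G protein signals in mural cells, stood at 4448 and 3021 CPM in 50 mural cells. Gucy1a1 and Gucy1b1, the subunits of the nitric oxide receptor, stood at 664 and 446 and at 357 and 435 CPM. Pde3a, which breaks down cyclic nucleotides, stood at 340 and 435 CPM, and Pln, the brake on the calcium pump, had 22 UMIs in 8 mural cells and none on the fibroblastic side. Myocd, the coactivator of the smooth muscle programme, was low but had 8 UMIs in 8 mural cells and 0 on the fibroblastic side. Of the 20 genes of the list of regulators and ion handling, 17 had UMIs in members, and 14 were higher on the mural side in both libraries. Mkl1 and Mkl2 were not analysed here. Other leading mural genes were Rasl11a, a small GTPase (1461 and 1576 CPM), the transcription factor Mef2c (797 and 902 CPM), Ndufa4l2 (905 and 739 CPM in 51 cells), Nrgn (548 and 185 CPM), Sncg (1071 and 348 CPM), Tesc (282 and 293 CPM) and Tbx2 (257 and 174 CPM in 28 cells). Nrgn, Tesc and Tbx2 had 0 UMIs on the fibroblastic side.

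Notch genes lay mostly on the mural side. Nrip2 stood at 357 and 380 CPM there and at 4.99 and 13.9 CPM on the fibroblastic side. Nrarp, a feedback gene that Notch switches on, stood at 340 and 359 CPM in 32 mural cells. The Notch targets Heyl and Hey2 had 17 UMIs in 13 and 12 UMIs in 10 mural cells, against 3 and 0 on the fibroblastic side. Hes1 stood at 1320 and 880 CPM, and was also plentiful in other kept cells at 421 and 383 CPM. Of the ligands, Jag1 had 35 UMIs in 26 mural cells, Jag2 had 17 in 8 and Dll4 had 8 in 5. Of the 12 genes of the Notch list, all had UMIs in members and 9 were higher on the mural side in both libraries, the rule gene Notch3 among them, where 34.8% of all genes with at least 20 UMIs were.

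The mural cells were not divided cleanly into smooth muscle and pericytes. Among pericyte markers Pdgfrb, the receptor through which endothelium recruits mural cells, stood at 473 and 663 CPM in 42 cells, Cspg4 at 158 and 217 CPM in 22 cells, and Higd1b at 158 and 130 CPM in 20. Abcc9 and Kcnj8, subunits of the potassium channel of pericytes, went the other way: Kcnj8 had 7 UMIs in 3 mural cells and 31 in 17 fibroblastic cells, and Abcc9 had 26 UMIs in 13 mural and 94 in 33 fibroblastic cells. Myh11 and Rgs5, found together in 47 of 54 cells, did not split the side. Vtn, vitronectin, differed between libraries, at 124 CPM in library 1 and 489 in library 2, with 16 of the 19 mural cells of library 2 but 11 of the 35 of library 1 carrying it. Of the 7 ligands and receptors of the platelet-derived growth factor family, 3 were higher on the mural and 1 on the fibroblastic side in both libraries. Pdgfrb was also found in 24 fibroblastic cells. Pdgfra, the fibroblast receptor, had no UMI in any mural cell and 116 in 32 fibroblastic cells, whereas the ligand Pdgfa stood at 266 and 337 CPM in mural and 44.9 and 27.8 CPM in fibroblastic cells.

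Mural cells carried basement membrane genes, as did the fibroblastic and the other cells. Sparc, a collagen-binding glycoprotein, was in all 54 mural cells at 2407 and 1858 CPM. Col4a1, the main basement membrane collagen, stood at 689 and 652 CPM in 44 cells, and Lamb2, a laminin chain, at 349 and 283 CPM. Of the 15 basement membrane genes, 7 were higher on the mural and 4 on the fibroblastic side in both libraries, while 8 were higher in the other kept cells than on the mural side. Summed, they stood at 4963 and 4032 CPM on the mural, 5457 and 2599 CPM on the fibroblastic side and 4062 and 3924 CPM in other kept cells. Aspn, a small proteoglycan, was a mural gene here at 257 and 369 CPM in 30 cells, against 0.504 and 0.505 CPM in other cells. Signals to neighbouring cells included Kitl, stem cell factor, at 415 and 500 CPM in 31 mural cells. Angpt1, the ligand that steadies vessels, had 9 UMIs in 9 cells.

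**Figure D2:**
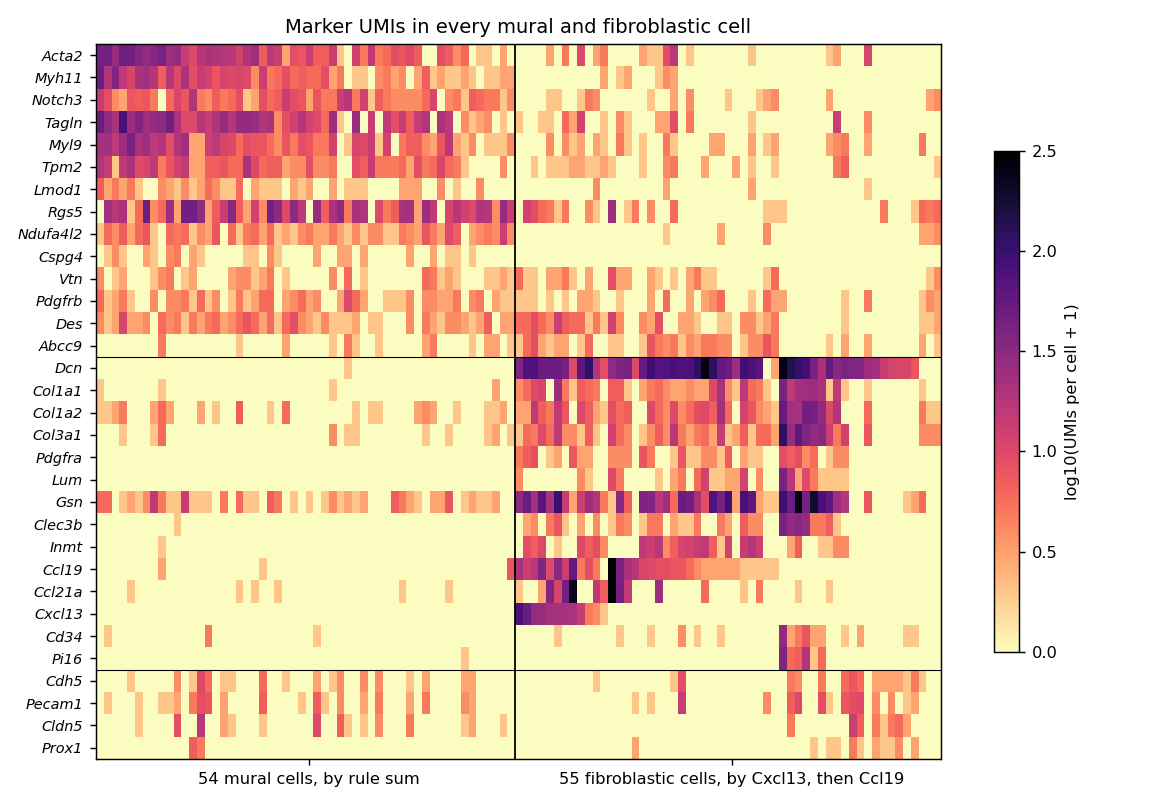
Columns are the 54 mural and 55 fibroblastic cells, rows are marker genes, and the colour gives log10 of UMIs plus 1. Contractile genes fill the mural block, Dcn and Gsn run through most of the fibroblastic block, Cxcl13 marks 12 cells and Pi16 another 6, and endothelial UMIs gather in a subset of both sides.

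Fibroblastic cells were carried by Dcn, decorin, a proteoglycan that binds collagen fibrils. It stood at 11524 and 9812 CPM in 51 of 55 cells, with 1 UMI on the mural side. Col1a2 stood at 1941 and 723 CPM and Col3a1 at 2225 and 612 CPM. These are rule genes. Of the others, Gsn, gelsolin, stood at 8246 and 2293 CPM in 46 cells, Pdgfra at 509 and 195 CPM in 32 cells, Lum, lumican, at 564 and 347 CPM in 25 cells and Dpt, dermatopontin, at 783 and 208 CPM in 26 cells. Lum, Dpt and Pdgfra had no UMI on the mural side.

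Collagens were present as a family and were higher in library 1. Col1a1, the partner chain of Col1a2, stood at 1492 CPM in library 1 and 403 in library 2, Col6a1 at 723 and 389 CPM, Col5a1 at 274 and 125 CPM and Col14a1 at 394 and 83.4 CPM. All 12 fibrillar and associated collagens had UMIs on both sides, and 10, the 2 rule genes included, were higher on the fibroblastic side in both libraries. Among all genes with at least 20 UMIs in members, 27.0% were. Summed over the list, the level was 8211 and 2793 CPM on the fibroblastic side, 1054 and 869 CPM on the mural side and 222 and 129 CPM in other kept cells. Elastic fibre and matrix glycoproteins were fibroblastic for 10 of 17, with Fn1, fibronectin, at 1217 and 764 CPM. Matrix enzymes were for 10 of 20, with the collagen chaperone Serpinh1 at 783 and 848 CPM, the collagenase Mmp2 at 274 and 83.4 CPM and Loxl1, which crosslinks elastin, at 269 and 27.8 CPM.

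Complement genes were high on the fibroblastic side in both libraries. C3, the central complement component, stood at 7099 and 7741 CPM in 43 of 55 cells, against 116 and 21.7 CPM on the mural side and 543 and 441 CPM in the other kept cells. C4b stood at 908 and 959 CPM in 35 cells and had 1 UMI in mural cells. C1s1, the protease that starts the classical cascade, stood at 1172 and 931 CPM, and Serping1, its inhibitor, at 1492 and 1181 CPM. Of the 13 complement genes, 11 had UMIs in members and 9 were higher on the fibroblastic side in both libraries. C1qa and C1qb, made by macrophages, had none. Apoe, a lipid carrier, had 2907 UMIs in 45 fibroblastic cells and 35 in 18 mural cells.

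Chemokines were prominent on the fibroblastic side. Cxcl12, which retains lymphocytes and precursors, was the one found in most cells, at 4744 and 5948 CPM in 43 of 55 cells, against 614 and 369 CPM on the mural side and 928 and 1059 CPM in other kept cells. Ccl19, the T cell area chemokine, was found in 33 of 55 fibroblastic cells (60%), 23 of them with at least 3 UMIs, in 3 of 54 mural cells and in 4.04% of other kept cells, a share that serves as a background. It stood at 1367 CPM in library 1 and at 7991 CPM in library 2, the latter resting largely on 1 cell. That cell, of the library 2 Xbp1-KO mesenteric pool with 13583 UMIs, held 494 of 849 Ccl19 UMIs, 517 of 939 Ccl21a UMIs and 74 of 86 Cxcl9 UMIs, with 29 Dcn UMIs and none of Cdh5 or Pecam1. Of the 19 chemokines and cytokines, all had UMIs on the fibroblastic side, and 15 were higher there than on the mural side in both libraries. The survival factors Il7 and Tnfsf13b were sparse, with 10 UMIs in 7 and 22 UMIs in 14 cells. Ccl19 and Ccl21a have near-identical copies in the mouse genome, so the split between copies is uncertain.

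Cxcl13, the follicular chemokine, was in 12 of 55 fibroblastic cells, 11 of them with at least 3 UMIs, in no mural cell and in 0.163% of other kept cells. All 12 also carried Des, C3 and Cxcl12, 11 carried Ccl19, 8 carried Ccl21a, 8 carried Inmt and 9 carried Abcc9, and none had 3 or more endothelial UMIs or any Pi16. Of the 8 genes of the list for marginal reticular and follicular dendritic cells, 6 had UMIs in members. Cr2 and Fcer2a, which B cells share with follicular dendritic cells, had none. Mfge8 and Clu were found in 40 and 39 fibroblastic and in 47 and 19 mural cells. Madcam1, also on that list, had 28 UMIs in 4 of 22 mesenteric and 0 of 33 peripheral fibroblastic cells. Of these 4 cells, 2 had at least 3 endothelial UMIs. Tnfsf11, the cytokine that marginal reticular cells share with osteoblasts, had 22 UMIs in 7 cells. Each of these 7 carried Ccl19 and Inmt and 2 carried Cxcl13. The reticular names thus rest on overlapping genes, since Ccl19 and Inmt were found together in 22 cells and Ccl19 and Pdgfra in 24.

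A group of 6 fibroblastic cells carried Pi16. All came from library 1, 4 from mesenteric and 2 from peripheral pools. Genes found in only some of them were Pdgfra (5 cells), Cxcl12 (4), Inmt (3) and Dpp4 (3). All 6 carried Cd34, Col1a1, Mfap5, Igfbp6, Clec3b and C3, whereas none carried Ccl19, Cxcl13, Des or Abcc9. They held much of the fibroblastic output of several genes: 97 of 115 Igfbp6 UMIs, 104 of 134 Mfap5 UMIs, 54 of 61 Cd248 UMIs, 44 of 45 Sema3c UMIs and 45 of 49 Sfrp2 UMIs. Of these 6 cells, 3 had at least 3 endothelial UMIs. Igfbp6 binds insulin-like growth factor, Mfap5 is a microfibril glycoprotein, and Sfrp2 modulates Wnt signals. Cd34 as such was broader, in 16 fibroblastic cells, all of library 1, and in 46.7% of other kept cells, endothelium being a known source.

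A remainder of 12 fibroblastic cells had no UMI of Ccl19, Cxcl13, Pi16 or Inmt. In 8 of them at least 3 endothelial UMIs were found, out of 14 such cells on the whole side. None carried Pdgfra, 2 carried Col1a1, and the median Dcn count was 10.5 UMIs against 54 in the other 43 cells. Leaving out members with more than 2 endothelial UMIs removed 8 of these 12 cells and 6 other fibroblastic cells, so the part of the 12 cells alone in the results was not tested. Markers of further cell types were also counted. Ptprc, the leukocyte antigen CD45, had no UMI in any member. The 8 leukocyte genes summed to 66.4 and 10.9 CPM on the mural side and to 219 and 389 CPM on the fibroblastic side, mostly Cd74, against 339 and 329 CPM in other kept cells. The 7 lymphatic endothelial genes summed to 116 and 848 CPM on the mural and to 2095 and 9006 CPM on the fibroblastic side, where 939 of their 1068 UMIs were Ccl21a, against 3769 and 3992 CPM in other kept cells. The 5 adipocyte genes summed to 4971 and 3130 CPM on the mural side, nearly all from Fabp4, a fatty acid carrier that endothelium is known to make as well, with 886 UMIs in 52 mural cells and 3200 and 2840 CPM in other kept cells. Adipoq, Cidec and Lep of that list were at 0 in members, and the mesothelial and epithelial list gave none. Plin1, the remaining adipocyte gene, had UMIs on both sides. It was higher on the fibroblastic side than on the mural side and in other kept cells, in both libraries. The part of these genes in the results was not tested.

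Growth factor modulators were found on both sides. Of the 6 genes of the list of insulin-like growth factor binding proteins, 2 were higher on the fibroblastic and 1 on the mural side in both libraries, with sums of 6585 and 5031 CPM on the fibroblastic and 4814 and 5096 CPM on the mural side. Igfbp3 stood at 818 and 639 CPM, against 116 and 32.6 CPM in mural cells, and Igfbp7 was plentiful everywhere, at 3407 and 2655 CPM on the fibroblastic and 4141 and 3499 CPM on the mural side. Grem1, an inhibitor of bone morphogenetic proteins, had 23 UMIs in 10 fibroblastic cells and was in 0.0102% of other cells. Of the 18 genes of the list of BMP and WNT modulators, 16 had UMIs in members and 10 were higher on the fibroblastic side in both libraries. Vegfa, the endothelial growth factor, stood at 289 and 320 CPM in 29 fibroblastic cells and at 74.7 and 10.9 CPM on the mural side.

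Members made up 0.475% to 1.73% of the kept cells of a pool. In peripheral pools the share was 1.25% and 1.29% in WT (libraries 1 and 2) and 1.13% and 0.824% in Xbp1-KO. In mesenteric pools it was 0.732% and 0.475% in WT and 1.28% and 1.73% in Xbp1-KO. The difference between genotypes was within the spread of pools: 1.24% ± 0.375 (SD, n = 4) in Xbp1-KO against 0.936% ± 0.398 (SD, n = 4) in WT, with p = 0.343 by a two-sided exact permutation test and 0.8 after adjustment over the 4 tests of shares, where 70 splits allow no p below 0.0286. Peripheral and mesenteric pools differed by 0.0692 percentage points (exact permutation p = 0.857). WT mesenteric pools had few mural cells. Library 1 gave 1 mural and 12 fibroblastic cells there, and library 2 gave 2 mural and 0 fibroblastic cells among 421 kept, where a limit of 3 cells allows a share of up to 0.713% and the exact 95% binomial interval drawn in the plot of shares reaches 0.872%. Xbp1-KO mesenteric pools gave 7 mural and 3 fibroblastic cells in library 1 and 9 and 7 in library 2. The mural share of members was 57.0% ± 10.4 (SD, n = 4) in Xbp1-KO and 39.5% ± 27.6 (SD, n = 3) in WT pools with at least 3 members (exact permutation p = 0.4, smallest possible 0.0571). The sort for endothelial cells can set these shares, so they do not measure stromal cells in the node.

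**Figure D3:**
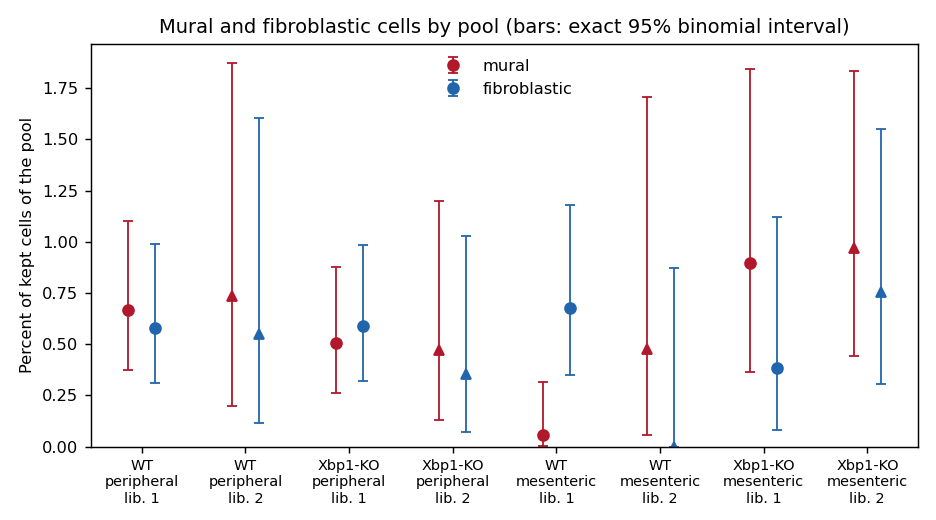
Mural (red) and fibroblastic (blue) cells as a percentage of the kept cells of each pool, with exact 95% binomial intervals that cover counting error only; circles are library 1 and triangles library 2. The library 1 WT mesenteric pool had the lowest mural share, 0.0563% (1 cell), whereas that of library 2 (2 cells, 0.475%) was close to the library 2 Xbp1-KO peripheral pool at 0.471%.

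Between peripheral and mesenteric nodes the fibroblastic side differed most in Cxcl13. Summed per pool, peripheral Cxcl13 stood at 1492 and 7095 CPM in WT mice (libraries 1 and 2) and at 1111 and 3525 CPM in Xbp1-KO mice, and the 3 mesenteric sums were at 0. The 4 peripheral sums do not overlap the mesenteric ones, as was so, in either direction, for 8.02% of the 997 genes tested. Together, 285 of 146331 UMIs in 33 peripheral cells were Cxcl13, against 0 of 126081 in 22 mesenteric cells; set against a floor of 3 UMIs over the mesenteric group, the peripheral level was at least 81.9-fold higher. Each peripheral pool contributed Cxcl13 cells, 3, 4, 3 and 2 in number, whereas 0 of 22 mesenteric cells had a Cxcl13 UMI, which allows a share of up to 13.6% of cells with such a UMI and sets no limit on cells that express the gene. edgeR's quasi-likelihood test on the 7 sums with at least 3 cells (3 to 14 cells and 11699 to 64416 UMIs each), adjusted over 997 genes, gave an adjusted p of 0.0542, and so Cxcl13 was not called in that fit. With library as a block its adjusted p was 0.000465, with DESeq2 1.59e-07, and without members of more than 2 endothelial UMIs 0.0255. It was 0.136 where a stromal sum of at least 10 UMIs was required and 0.192 without library 2, and over all alternatives it ran from 1.26e-10 to 0.192.

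At an adjusted p under 0.05, 0 of 997 genes (0%) were called on the fibroblastic side between tissues by edgeR, with 73 at an unadjusted p under 0.05, and 2 by DESeq2. The next genes by p were not called either. Cp, ceruloplasmin, a copper-carrying oxidase, stood at 497 to 1095 CPM in the 4 peripheral sums and at 171 to 220 CPM in the 3 mesenteric sums, a log2 difference of 2.10 ± 0.49 (SE; edgeR adjusted p = 0.287). That difference was 1.46 with sums of at least 10 cells and 2.88 without members of more than 2 endothelial UMIs. Cd55, which shields cells from complement, stood at 0 to 129 CPM in peripheral and 562 to 882 CPM in mesenteric sums, a log2 difference of -3.04 ± 0.64 (edgeR adjusted p = 0.287); DESeq2 called it, with an adjusted p of 0.0295, and over all alternatives the adjusted p ran from 0.0213 to 0.618. Without members of more than 2 endothelial UMIs the log2 difference of Cd55 was -5.96 (edgeR adjusted p = 0.0255). In the other kept cells Cd55 ran the opposite way, with 927 to 1691 CPM in peripheral and 260 to 679 CPM in mesenteric pools. Cd248, a surface protein of fibroblasts, stood at 0 to 33.2 CPM in peripheral sums and at 745, 514 and 41.6 CPM in mesenteric sums, and was called by edgeR with library as a block (log2 difference -4.11, edgeR adjusted p = 0.0348), in a range of 0.0348 to 0.287 over all alternatives. Isg15, an interferon-induced protein, stood at 0 to 149 CPM against 373 to 1020 CPM (log2 difference -3.17 ± 0.78, edgeR adjusted p = 0.287; -7.60 without library 1, -2.30 without library 2, -1.38 with sums of at least 10 cells and -4.76 without members of more than 2 endothelial UMIs). The groups of each of these 4 genes, which were named for their small p, do not overlap. The 6 Pi16 cells, 4 of them mesenteric, held 54 of the 102 Cd55 UMIs and 54 of the 61 Cd248 UMIs.

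Among other chemokines and cytokines, Cxcl12 was higher in each peripheral than in any mesenteric sum but was not called. It stood at 5321 to 12394 CPM in peripheral sums and 2577 to 3967 CPM in mesenteric sums, a log2 difference of 1.37 ± 0.36 (edgeR adjusted p = 0.287). Sparse genes went both ways, Il7 (10 UMIs) being found in 7 of 33 peripheral and 0 of 22 mesenteric cells and Tnfsf11 (22 UMIs) in 2 and 5. Ccl19 stood at 1989 to 2393 CPM in the 4 peripheral sums, at 202 and 73.5 CPM in the mesenteric sums of library 1 and at 10842 CPM in that of library 2, which holds the single high cell. Of the 13 chemokine and cytokine genes tested, 9 were higher in peripheral nodes and 0 were called, with a median log2 difference of 0.33 against -0.04 over all 997 genes. Over all genes 47.5% were higher in peripheral nodes. Of the genes of Cd34-positive vessel-wall cells 1 of 7 tested was, with a median of -2.11, and of the collagens 1 of 9, with a median of -0.56. Of the smooth muscle markers 5 of 5 tested were, with a median of 1.21, of the pericyte markers 6 of 7 (0.76) and of the medullary markers around Inmt 4 of 4 (0.96). None of these genes was called, and their part in the other differences was not tested. Rule genes are on the collagen list (Col1a2, Col3a1), the smooth muscle list (Acta2, Myh11) and the pericyte list (Notch3). Dcn overlapped, at 8205 to 13676 CPM in peripheral and 7929 to 13661 CPM in mesenteric sums.

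**Figure D4:**
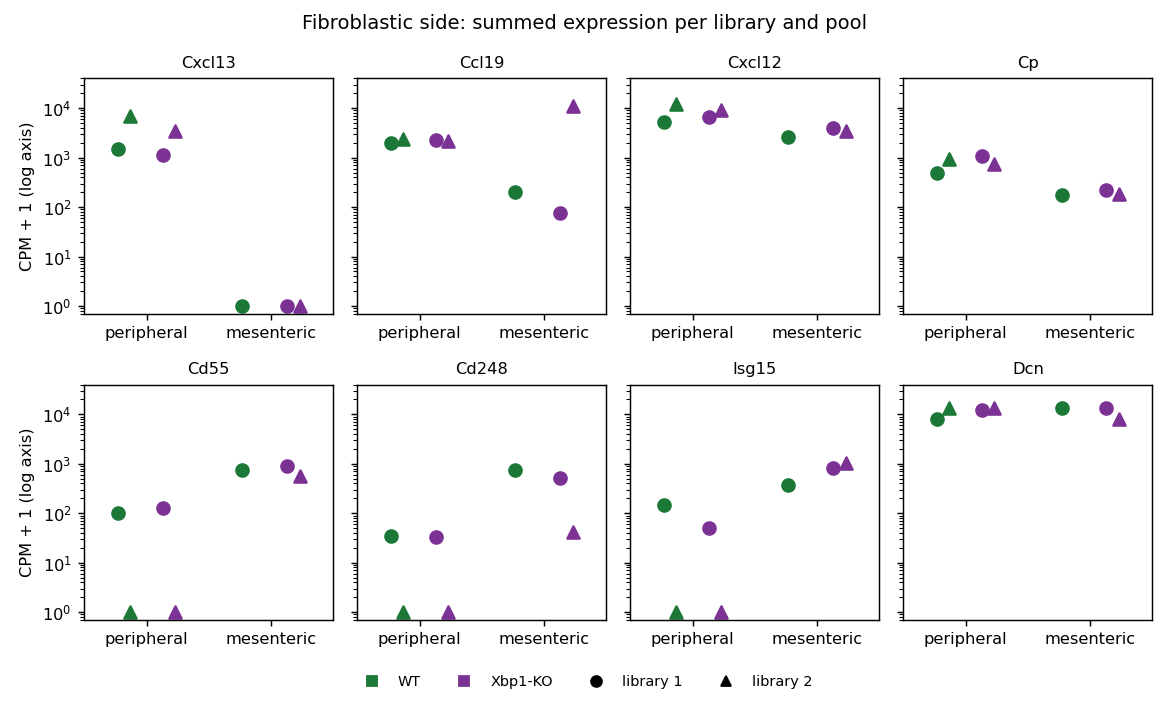
CPM plus 1 (log axis) of 8 genes in the summed fibroblastic cells of each library and pool, WT in green and Xbp1-KO in purple, circles for library 1 and triangles for library 2; the library 2 WT mesenteric pool had no fibroblastic cell. Cxcl13 is at 0 in the 3 mesenteric sums and above 1100 CPM in the 4 peripheral ones, while Dcn overlaps.

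On the mural side 4 genes were called between tissues, 0.765% of the 523 tested, and 3 of them were heat shock genes lower in peripheral nodes. The WT mesenteric pools, with 1 and 2 mural cells, were left out of this fit, so that the mesenteric level rests on the 2 Xbp1-KO pools; the 6 sums used hold 4 to 15 cells and 15169 to 55973 UMIs. Hspa1a, an inducible chaperone, stood at 965, 1318, 1499 and 283 CPM in the 4 peripheral sums and at 5567 and 10664 CPM in the Xbp1-KO mesenteric sums, a log2 difference of -3.19 ± 0.56 (edgeR adjusted p = 0.0171). Its neighbour Hspa1b differed by -3.20 ± 0.55 (edgeR adjusted p = 0.0171), and because the copies are near-identical the split between them is uncertain. Hspb1, a small heat shock protein, stood at 1252 to 3136 CPM in peripheral and at 10226 and 8890 CPM in mesenteric sums, a log2 difference of -2.12 ± 0.40 (edgeR adjusted p = 0.0227). The groups of these 3 genes do not overlap in the fit, nor do those of 18.2% of the 523 genes tested, in either direction. In the pools left out, Hspa1a stood at 3160 and 2491 CPM, between the peripheral and the Xbp1-KO mesenteric sums, and Hspb1 at 2528 and 650 CPM, within and below the range of the peripheral sums. With those pools added, the log2 difference of Hspb1 was -0.91 (edgeR adjusted p = 0.692) and its call was lost. Those of Hspa1a (-2.31, edgeR adjusted p = 0.0491), Hspa1b (-2.41, 0.0245) and Igfbp4 (3.34, 0.0245) stayed past the threshold. Over all alternatives, DESeq2 included, the adjusted p ran from 3.43e-06 to 0.116 for Hspa1a and from 5.15e-05 to 0.692 for Hspb1. The size depended on the library, the log2 difference of Hspa1a being -5.15 without library 1 and -1.89 without library 2, that of Hspa1b -3.89 and -2.04, and that of Hspb1 -2.76 and -1.71.

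The other kept cells of the same pools showed a difference of the same sign for Hspa1a, at 693 to 1440 CPM in peripheral and 1072 to 4494 CPM in mesenteric pools, with overlap. Hspb1 in those cells stood at 1785 to 3050 CPM in peripheral and 3568 to 6509 CPM in mesenteric pools. How many genes of those cells lie as far apart between tissues was not counted. Heat shock and early response genes are known to rise when tissue is digested, and the list of 19 such genes had 18 tested on the mural side. Of these, 1 was higher in peripheral nodes, 2 were called lower, and the median log2 difference was -1.02 against 0.04 over all 523 genes. On the fibroblastic side the same list went the other way, 14 of 18 higher in peripheral nodes with a median of 0.83 and 0 called; the difference between the sides was not tested. Whether the handling of the pools plays a part in the mural difference was not tested.

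Igfbp4, which binds insulin-like growth factor, was the single mural gene called higher in peripheral nodes. It stood at 375, 527, 527 and 1050 CPM in the 4 peripheral sums and at 79.0 and 93.3 CPM in the Xbp1-KO mesenteric sums, a log2 difference of 3.12 ± 0.65 (edgeR adjusted p = 0.0444). Of its 80 UMIs in mural cells, 35 came from the 2 cells that carried Prox1, both peripheral, and the other kept cells were also higher in peripheral pools, at 645 to 1027 CPM against 292 to 468 CPM. With only members whose stromal sum was at least 3 times the endothelial one, its log2 difference was 2.39 (edgeR adjusted p = 0.219), and DESeq2 did not call it (adjusted p = 0.0981; range over all alternatives 0.00801 to 0.219). In that setting none of the 4 genes was called, and without members of more than 2 endothelial UMIs none of the 3 heat shock genes was, Igfbp4 not being tested there. Fewer genes were tested in both (364 and 343), and the log2 difference of Hspa1a was -3.42 and -3.56. Of the contractile list, 6 of 12 tested genes were higher in peripheral nodes, with a median of 0.08 and 0 called, where 52.8% of all genes were higher. Of the pericyte markers 0 of 7 tested were higher, with a median of -0.79, of the smooth muscle regulators 0 of 6 (-0.45) and of the Notch genes 0 of 3 (-0.79). Both medians of -0.79 are the value of Notch3, a rule gene on both lists. Of the endothelial markers 3 of 4 tested were higher, with a median of 0.72. None of these genes was called, and their part in the heat shock and Igfbp4 differences was not tested. The contractile and endothelial lists hold rule genes as well.

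**Figure D5:**
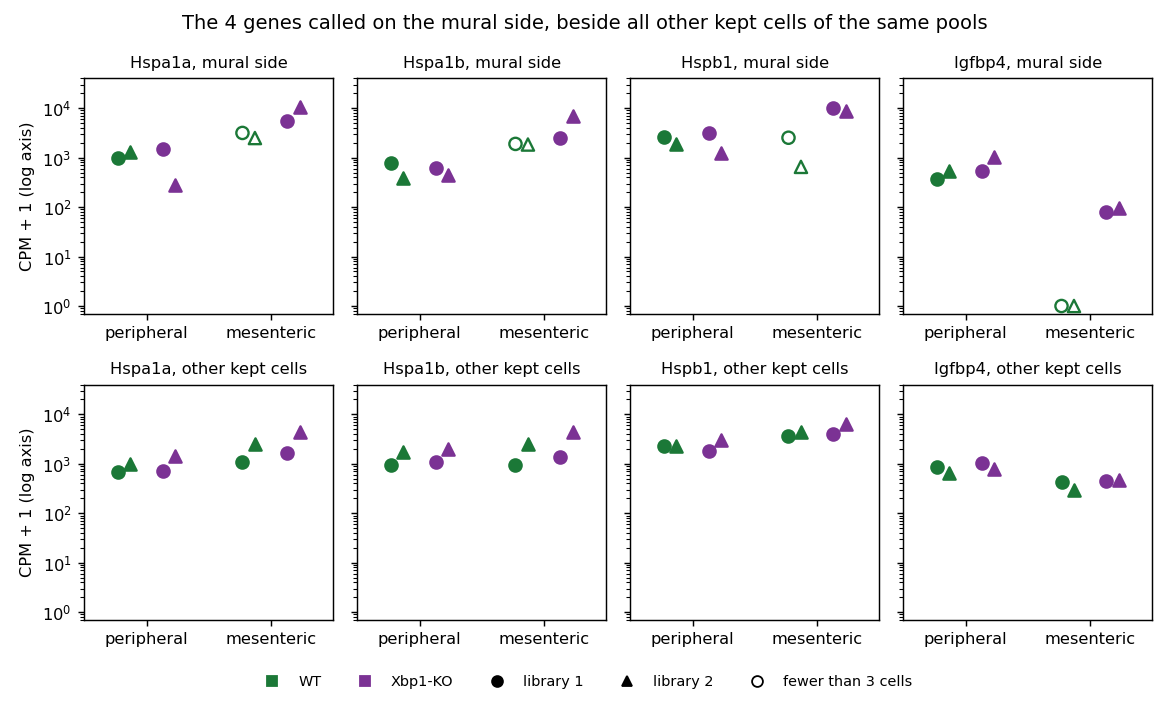
CPM plus 1 (log axis) of the 4 called genes in summed mural cells (top) and in all other kept cells (bottom) of each library and pool, WT in green and Xbp1-KO in purple; open symbols are the WT mesenteric sums of 1 and 2 cells, which the fit left out and in which Igfbp4 had 0 UMIs, drawn at the bottom. The 2 Xbp1-KO mesenteric sums lie above the 4 peripheral sums for the 3 heat shock genes and below them for Igfbp4.

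Xbp1, a transcription factor that enlarges the secretory apparatus of the endoplasmic reticulum, was sparse in stromal cells. It had 17 UMIs in 11 mural and 44 UMIs in 25 fibroblastic cells, and fell below the count filter on both sides. On the fibroblastic side the WT sums of library 1 held 15 (mesenteric) and 9 (peripheral) Xbp1 UMIs and the Xbp1-KO sums 1 and 12. In library 2 the WT peripheral sum held 1 and the Xbp1-KO sums 6 (mesenteric) and 0. The mural sums held 0 to 6. Xbp1 UMIs were thus present in Xbp1-KO pools on both sides, and Xbp1 was not tested between genotypes. The 3′ counts do not show whether an RNA is intact, so they are no check of the deletion. Targets of XBP1 in the endoplasmic reticulum were measured at 6291 and 6046 CPM in sum on the fibroblastic and 3934 and 3662 CPM on the mural side. Of the 36 genes 20 were higher on the fibroblastic side in both libraries and 2 on the mural side. Of the 13 tested between genotypes on the fibroblastic side, 6 were higher in Xbp1-KO, 0 were called and the median log2 difference was -0.01, against -0.02 over all genes.

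Between genotypes no gene was called on either side by edgeR: 0 of 997 (0%) on the fibroblastic side, with 26 at an unadjusted p under 0.05, and 0 of 523 (0%) on the mural side, with 9. DESeq2 also called 0 and 0. The 5 fibroblastic genes with the smallest p had an edgeR adjusted p of 0.999. Ifitm1, an interferon-induced membrane protein, stood at 451, 1475, 514 and 1311 CPM in the 4 Xbp1-KO sums and at 381, 171 and 140 CPM in the 3 WT sums. Glul, glutamine synthetase, stood at 82.0 to 147 CPM in Xbp1-KO and 256 to 431 CPM in WT sums, and Gas1, a growth arrest protein, at 20.8 to 193 CPM and 249 to 1282 CPM. These 3 genes do not overlap between genotypes, as was so for 3.91% of the genes tested, whereas Smpd3 and Fxyd5 do. The log2 differences of Ifitm1, Glul and Gas1 were 2.11, -1.47 and -2.19. Without library 2 they were 0.83, -1.62 and -0.84, and with sums of at least 10 cells 0.32, -1.84 and -0.28. Without library 1 those of Ifitm1 and Gas1 were 3.34 and -2.66. Between genotypes 47.6% of all genes tested on the fibroblastic side were higher in Xbp1-KO, and no gene of the marker lists was called. Of the contractile list 9 of 9 tested genes were higher, with a median log2 difference of 0.49, of the smooth muscle markers 5 of 5 (0.62) and of the pericyte markers 7 of 7 (0.60). Of the endothelial markers 0 of 5 were higher, with a median of -1.37, and of the markers of Cd34-positive vessel-wall cells 1 of 7 (-1.27). These lists share genes, some of them also hold rule genes, and their part in the differences named here was not tested. Among mural genes with an edgeR adjusted p of 0.9996, Btg1, an inhibitor of proliferation, stood at 1145 to 1638 CPM in the 4 Xbp1-KO sums and at 732 and 857 CPM in the 2 WT sums, both peripheral. Its groups do not overlap, nor do those of 8.8% of the mural genes tested. Rrad, a small GTPase, had a log2 difference of 2.62 ± 0.89 that was 5.24 without library 1 and 0.04 without library 2. Rasl11a, Hes1 and Rgs5 had log2 differences of -1.56 ± 0.42, -1.24 ± 0.49 and -0.87 ± 0.35 with overlapping groups. Without libraries 1 and 2 in turn these were -2.21 and -1.11 for Rasl11a, -1.98 and -0.82 for Hes1 and -0.96 and -0.76 for Rgs5, and with the WT mesenteric sums added -1.22, -0.45 and -0.26. Without members of more than 2 endothelial UMIs they were -1.43, -2.45 and -1.29. Of the contractile list, 5 of 12 genes tested on the mural side were higher in Xbp1-KO, with a median log2 difference of -0.04 and 0 called, where 48.0% of all genes were higher. Of the pericyte markers 1 of 7 tested was higher, with a median of -0.36, of the Notch genes 0 of 3 (-0.86) and of the early response and heat shock list 3 of 18 (-0.28), with 0 called. Their part in the values of Hes1 and Rgs5, which are themselves in these lists, was not tested. The contractile, pericyte and Notch lists also hold rule genes. Tagln, which the rule did not use, had a log2 difference of 0.12 ± 0.40 on the mural side. The values of Acta2 (0.30 ± 0.33) and Myh11 (0.13 ± 0.35) are a description, since both genes chose the cells.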

How the data were processed

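The values deposited by the authors are raw UMI counts of each gene in each barcode. The file headers name version 6.0.1 of Cell Ranger, whereas the submitters' processing notes name version 6.1 and the mm10 build. The annotation and the treatment of intronic reads are not given in the sources used here, and the labels name both version 2 and version 3 chemistry. Kept cells had at least 500 genes, at most 10% mitochondrial UMIs, at least 10 UMIs of the leading tag and at least 3 times those of the next tag. The members, the gene lists and the rules for naming genes were chosen with earlier results of these data known. Named were the 9 rule genes, Xbp1, and genes from the 15 leading ones of a side by CPM ratio (10 CPM added, at least 20 UMIs, higher in both libraries). Some leading genes are not printed. Also named were called genes or, where fewer than 3 were called, the 5 with the smallest p, and up to 6 genes per list. Co-detected genes, Nrarp and the genes of the Pi16 cells were named after their values were seen. Neither side has a deposited annotation; names come from markers.

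Counts were summed per library, pool and side, and sums of at least 3 cells were tested with edgeR 4.0.16 (TMM, filterByExpr, quasi-likelihood, tissue and genotype additive, no library block) at a Benjamini-Hochberg adjusted p of 0.05; scripts were tested on simulated data. DESeq2 1.42.0 and scanpy 1.11.5 (Scrublet) were alternatives or checks. Shares were compared by exact permutation tests. The libraries pair the pools because a replicate number is a shared droplet run; deviations from group means correlated by 0.0529 to 0.209 between pools of 1 library on the fibroblastic and by 0.0345 to 0.316 on the mural side. Promoter windows are from RefSeq on GRCm38.p6. Precision is limited by 2 pools per group and few cells per sum, and counting error was not told apart from the spread between pools.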

Additional observations from a re-analysis of the deposited data

Results flagged for a closer look

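In peripheral pools the fibroblastic share of kept cells was 0.353% in the Xbp1-KO pool of library 2 and lay between 0.551% and 0.588% in the other 3, so the 1 pool lies apart from the others. It rests on 3 cells, and its exact 95% binomial interval of 0.0728% to 1.03% holds the other 3 values. On the fibroblastic side Smpd3 stood at 147 CPM (2 UMIs) in the library 1 Xbp1-KO mesenteric sum and at 0 in the other 3 Xbp1-KO sums. Of 31 groups looked at, these 2 had such a sample; chance gives about 1 in 20.

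The share of members differed in opposite directions between genotypes in the 2 tissues, though not under every setting. Xbp1-KO minus WT was -0.114 percentage points in library 1 and -0.463 in library 2 for peripheral nodes, and 0.552 and 1.25 for mesenteric nodes. In library 1 the peripheral sign turned with the 3-fold endothelial margin, with 20 members of 2242 kept WT cells and 22 of 2380 Xbp1-KO cells, and with at most 2 endothelial UMIs, with 17 and 20 members of the same cells. For mural cells alone it was -0.165 and -0.265 in peripheral and 0.842 and 0.496 in mesenteric nodes. For fibroblastic cells the sign differed between libraries, with 0.0084 and -0.199 in peripheral and -0.291 and 0.755 in mesenteric nodes. The difference between tissues was not tested, and the WT mesenteric pools hold 1 and 2 mural cells.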

How the results depend on the processing

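On the fibroblastic side the 0 genes called between tissues became 2 with DESeq2, 2 with the replicate block (library), 2 where the stromal sum had to be at least 3 times the endothelial one, 1 with a tag ratio of at least 5, 6 with no count filter and 3 among members with at most 2 endothelial UMIs, an alternative chosen after seeing the data. The 4 genes called on the mural side became 6 with the replicate block (1 higher and 5 lower in peripheral nodes) and 6 with no count filter (3 and 3), 3 with DESeq2, and 0 with the 3-fold endothelial margin and 0 with at most 2 endothelial UMIs, where fewer genes and cells were tested. The mural genotype comparison gave 1 gene with no count filter. The block changed no call between genotypes. Elsewhere the cause of a change was not tested.

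The tissue difference in the share of members, 0.0692 percentage points, was -0.00181 with the 3-fold margin and -0.0189 with at most 2 endothelial UMIs, and ran from -0.0454 to 0.184 when a library was left out. The mural share differed between genotypes by -0.446 to 26.6 points when a library was left out, and between tissues by -0.974 where a stromal sum of at least 10 UMIs was required. Of the alternatives to main results 56 stayed on the same side, 9 moved and 5 reversed; for single genes 165 stayed, 18 moved, 10 gained and 13 lost a call. Leaving out library 1, either library on the mural side, or asking for 10 cells per sum left no residual degree of freedom or no mesenteric sum, so no calls could be counted there. Depth limits all genes with few UMIs, Xbp1 among them.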
